A study of Mus musculus with 9 samples.

Results

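The step examined here is cell cycle exit in the embryonic mouse cortex, set out as newborn neurons against the differentiating progenitors that precede them. Its members are 6 of the 9 small RNA libraries of the series, chosen by their labels: 3 of differentiating progenitors and 3 of newborn neurons. All came from C57BL/6 embryos at embryonic day 14.5, from lateral cortex cleared of meninges, ganglionic eminences and olfactory bulb, and cells were separated by the fluorescence of endogenous reporters. The titles give differentiating progenitors as carrying R without G. For newborn neurons they name G alone, with no statement on R. The other 3 libraries, proliferating progenitors negative for both, entered the same fit. There they took part in the filter on low counts, the scaling and the estimate of spread behind every SE and p-value. Their own levels serve only where both steps of the lineage are set side by side. The labels name neither the genes that drive R and G nor the number of embryos or litters behind a library. The labels give no time since exit for the neurons, which are those cells of the dissociated cortex that carried G at the sort.

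MicroRNAs are short RNAs of which bases 2 to 8, the seed, pair with messenger RNAs and lower their translation and stability. Either arm (5p or 3p) of a hairpin can be used, and hairpins often lie together in 1 transcript or in the intron of a host gene, so that neighbours may be made together. In the developing cortex miR-9 is abundant in progenitors and neurons alike, miR-124 and miR-7 are known from neurons, let-7 from differentiation, and the miR-17 family from dividing progenitors. Whether cells leaving the cycle change whole seed families and whole loci, or single members of them, is what the counts below describe.

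The first set of sequences is shown because these miRNAs had the largest rises at the step, or share a seed or a locus with one that did. They are mature sequences from RefSeq, 5′ to 3′, with the seed in capitals.
miR-217-5p: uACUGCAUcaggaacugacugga
miR-216b-5p: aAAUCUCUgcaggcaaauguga
miR-139-5p: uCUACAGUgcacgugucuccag
miR-7a-5p: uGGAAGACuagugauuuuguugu
miR-7b-5p: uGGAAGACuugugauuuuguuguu
miR-128-2-5p: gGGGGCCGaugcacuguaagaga
miR-128-1-5p: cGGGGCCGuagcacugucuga
miR-344b-3p: cAUUUAGCcaaagccugacugu
miR-212-5p: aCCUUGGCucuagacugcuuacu
miR-132-5p: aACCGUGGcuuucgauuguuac

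The second set is shown because the members of each pair or group share a seed, yet did not move alike.
miR-146a-5p: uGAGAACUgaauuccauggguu
miR-146b-5p: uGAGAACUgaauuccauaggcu
miR-449a-5p: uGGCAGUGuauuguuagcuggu
miR-449c-5p: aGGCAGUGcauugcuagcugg
let-7c-5p: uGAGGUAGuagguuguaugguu
let-7e-5p: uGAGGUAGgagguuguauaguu
miR-99a-5p: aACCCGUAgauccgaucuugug
miR-100-5p: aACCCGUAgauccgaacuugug
miR-99b-5p: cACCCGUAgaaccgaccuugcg

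Counting from 1 at the 5′ end, without gaps, and naming the first member's base first, miR-7a-5p and miR-7b-5p differ by A10U over their shared length. The differences are G18A and U21C for miR-146a-5p and miR-146b-5p. For miR-449a-5p and miR-449c-5p they are U1A, U9C and U14C. let-7c-5p and let-7e-5p differ by U9G and G19A, and miR-99a-5p and miR-100-5p by U16A alone. The table was made by the authors, and how it assigned reads between such near-identical sequences is not given in the sources used here, so values of relatives that differ by 1 or 2 bases are uncertain to that extent.

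After merging repeated names, the table held 1052 miRNAs, of which 541 had a count in the 6 libraries, and 188 passed the filter on low counts and were tested. Library totals ran from 1131750 to 1490379 counts in differentiating progenitors and from 1067320 to 3856484 in newborn neurons. Levels are in CPM, counts set to a total of 1000000 per library after scaling by trimmed mean of M values (TMM) factors, which ran from 0.9425 to 1.219 over the 6 libraries, the highest being neuron replicate 3. Across the tested miRNAs the libraries of a population correlated at 0.987 to 0.995 and those of different populations at 0.949 to 0.965 (Pearson, log2 CPM). Changes are log2 of neurons over differentiating progenitors, with a standard error (SE), from edgeR's quasi-likelihood test with Benjamini-Hochberg adjustment over all 188. A miRNA is said to have risen or fallen only where its adjusted p is under 0.05. In sorted cells of bulk libraries, fewer cells that make a miRNA and less of it per cell cannot be told apart.

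At this step 45 of the 188 miRNAs rose (23.9%) and 42 fell (22.3%), together 46.3%, which is the background against which the counts of families and loci below are to be read. The rises were larger. Among the 50 miRNAs called with at least a 2-fold change (26.6%), 34 rose and 16 fell, and the median log2 change was 1.27 for all called rises and -0.81 for all called falls. With upper-quartile factors as scaling, the calls of at least 2-fold were 27 rises and 21 falls. The rises also sat lower in abundance: of the 90 tested miRNAs whose higher population averaged 10 to 100 CPM, 26 rose and 14 fell. Of the 39 at 1000 CPM or more, 5 rose and 12 fell. The 12 abundant falls are those of 7 let-7 members, miR-98-5p, miR-99a-5p, miR-100-5p, miR-26a-5p and miR-872-5p. The call of miR-26a-5p was lost in 9 of 19 alternatives (adjusted p up to 0.452), among them DESeq2, both scalings by total counts, and the fits without progenitor replicate 3 or neuron replicate 1 or 3. That of let-7i-5p was lost in 13 of 19 (adjusted p up to 0.246) and that of miR-98-5p in 7 (up to 0.21). let-7a-5p, let-7b-5p, let-7c-5p, let-7f-5p and let-7j lost theirs in 1 to 5. The median log2 change over all 188 was -0.06, and 11 rises and 6 falls were of at least 4-fold by the fitted value. The largest fitted fall was that of miR-142a-5p, on 3, 1 and 1 counts against 0, 0 and 0, so its fold is undetermined. Also among the 6, miR-146a-5p, miR-27a-5p and miR-92a-1-5p had 6 or fewer counts in each neuron library. miR-142a-5p, miR-27a-5p and miR-92a-1-5p passed the filter on low counts only with the proliferating progenitor libraries included. With only the 6 libraries of this step they were not tested. No overlap between progenitor and neuron libraries was seen for 93 of 188 miRNAs (49.5%), 51 with neurons above (27.1%) and 42 with neurons below (22.3%).

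**Figure D1:**
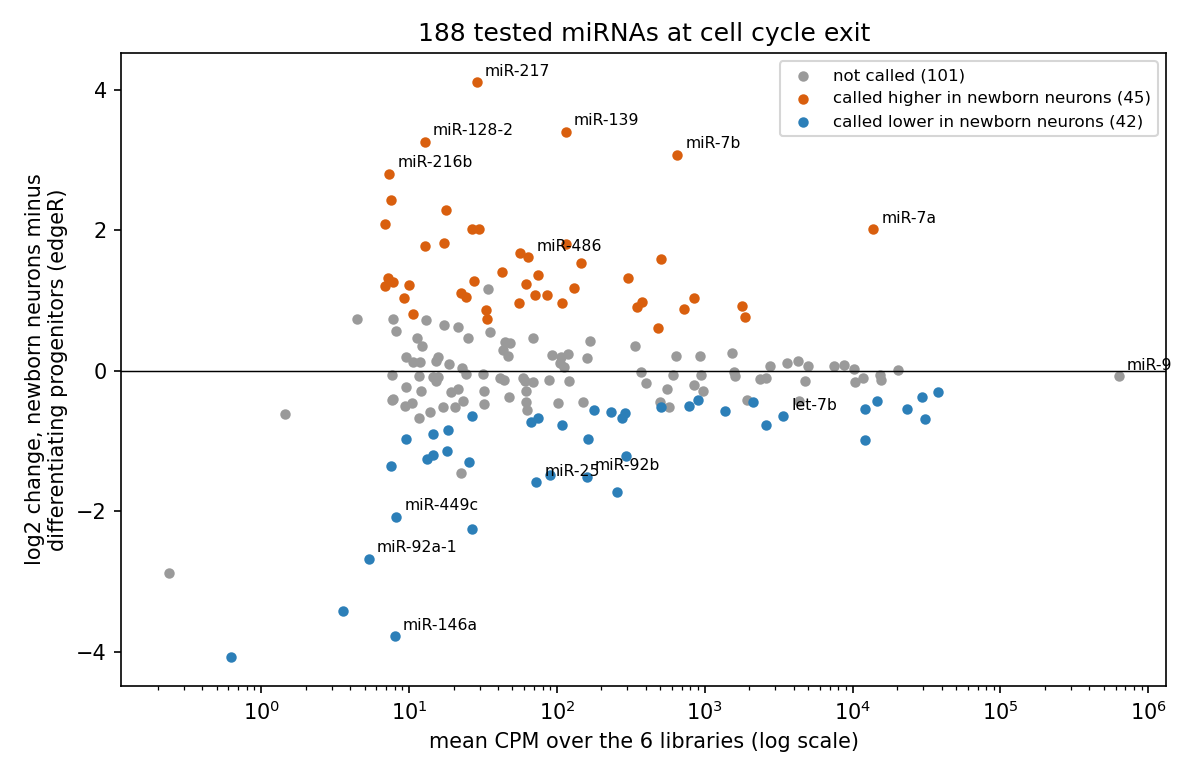
Each point is 1 of the 188 tested miRNAs, with its mean CPM over the 6 libraries on a log axis and its log2 change from edgeR; orange points are the 45 called rises, blue the 42 called falls and grey the others. Rises of at least 4-fold sit below 1000 CPM, except miR-7a-5p, while miR-9-5p at the far right lies near 0; labels leave out the arm.

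The largest rise was that of miR-217-5p. The progenitor libraries held 4 counts each, and the neuron libraries 212, 95 and 75. Every neuron library stood far above every progenitor library, from 3.08 ± 0.388 to 54.1 ± 3.78 CPM (SD, n = 3 each). The log2 change was 4.11 (SE 0.31, adjusted p in edgeR = 2.0e-08). miR-217 is best known from the exocrine pancreas. Its hairpin lies on the plus strand at chr11:28763728-28763835 (GRCm38), in an intron of the long non-coding RNA gene Gm12082. The nearby miR-216b, also known from pancreas, is annotated outside genes at chr11:28746191-28746276 on the same strand. miR-216b-5p had 2, 2 and 3 counts against 54, 18 and 20 in neurons, at least 5.6-fold higher when computed against 3 counts per progenitor library (edgeR adjusted p = 0.00011). Both are below the 100 CPM that the naming rule asks for and were singled out after their values were seen. The pair shares no seed, and both rose in all 3 neuron libraries.

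miR-139-5p, made from an intron of Pde2a (chr7:101475376-101475443, plus strand), a phosphodiesterase gene, went from 23, 21 and 34 counts to 916, 399 and 236. That is 19.7 ± 4.03 against 209 ± 27.2 CPM (SD, n = 3 each), a log2 change of 3.40 (SE 0.29, adjusted p in edgeR = 9.88e-08). No neuron library came near the progenitor range. miR-128-2-5p, from an intron of Arpp21 (chr9:112118636-112118711, minus strand), a gene of a regulator of signalling in neurons, had 0, 5 and 4 counts in progenitors and 59, 66 and 25 in neurons. Where nothing was counted, in replicate 1, up to 3 counts could be missed. The log2 change was 3.26 (SE 0.57, adjusted p in edgeR = 0.00021). With 1 library left out it ran from 2.68 to 3.94, the higher value without progenitor replicate 2. Its relative with the same seed, miR-128-1-5p, comes from an intron of R3hdm1 (chr1:128202361-128202430) and had 16, 13 and 12 counts in progenitors and 36, 20 and 8 in neurons. These libraries overlapped and the log2 change was -0.23 (SE 0.32, adjusted p in edgeR = 0.59). The 5p arm is the minor product of both miR-128 hairpins, while their 3p arms, which are identical, were not analysed here. The 5p arms thus tell apart 2 loci: the Arpp21 hairpin rose, and for the R3hdm1 hairpin no change was detectable at 8 to 36 counts.

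miR-7 took the largest share of the rise in absolute terms. miR-7a-5p, made from an intron of Hnrnpk (chr13:58392779-58392886, minus strand) and from a hairpin at chr7:78888277-78888373, had 7574, 6676 and 7201 counts in progenitors and 96604, 39141 and 26829 in neurons. Its part of all miRNA counts was 0.541% ± 0.054 in progenitors and 2.37% ± 0.246 in neurons (SD, n = 3 each), so that it ranked among the 10 most abundant miRNAs of the 6 libraries. miR-7b-5p, from a hairpin outside genes at chr17:56242988-56243098, had 152, 174 and 213 counts against 4971, 2110 and 1411. It was the steeper of the pair, with a log2 change of 3.07 (SE 0.18, adjusted p in edgeR = 9.91e-10) against 2.01 for miR-7a-5p (SE 0.14, adjusted p in edgeR = 1.27e-08). The ratio of miR-7a-5p to miR-7b-5p was 49.8, 38.4 and 33.8 in the progenitor libraries and 19.4, 18.6 and 19.0 in the neuron libraries. The ranges did not overlap, and the exact permutation test gave p = 0.1, the smallest value that 3 libraries against 3 can give.

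Neighbouring hairpins rose as pairs at 3 further loci. miR-212-5p and miR-132-5p lie 0.36 kb from end to end on chromosome 11, in an intron of 1700016P03Rik, and are known to be induced by neuronal activity. miR-212-5p had 7, 3 and 14 counts in progenitors and 113, 66 and 33 in neurons (log2 change 2.29, SE 0.36, adjusted p in edgeR = 8.38e-05), and the change was 2.97 without progenitor replicate 3. miR-132-5p had 5, 1 and 4 against 40, 17 and 19 (log2 change 2.09, SE 0.42, adjusted p in edgeR = 0.00068). miR-183-5p and miR-182-5p, from a cluster known for sensory organs on chromosome 6 (chr6:30165918-30169737, minus strand), rose by near-identical amounts. miR-183-5p had 14, 10 and 23 counts against 204, 83 and 62 (log2 change 2.02, SE 0.27), and miR-182-5p had 18, 9 and 15 against 197, 65 and 56 (2.01, SE 0.28). Adjusted p-values in edgeR were 1.80e-05 and 2.40e-05. In both pairs no neuron library fell within the progenitor range. In an intron of the chloride transporter gene Clcn5 on the X chromosome, miR-362-5p had 47, 50 and 48 counts against 265, 118 and 115 (log2 change 0.96, SE 0.24, adjusted p in edgeR = 0.0033). Its neighbour miR-188-5p had 4, 5 and 7 against 32, 18 and 15 (1.2, SE 0.36, adjusted p in edgeR = 0.011). This last pair was singled out after its values were seen. The call of miR-188-5p was lost without replicate 1 of the differentiating progenitors and with DESeq2's Wald test (adjusted p up to 0.077).

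**Figure D2:**
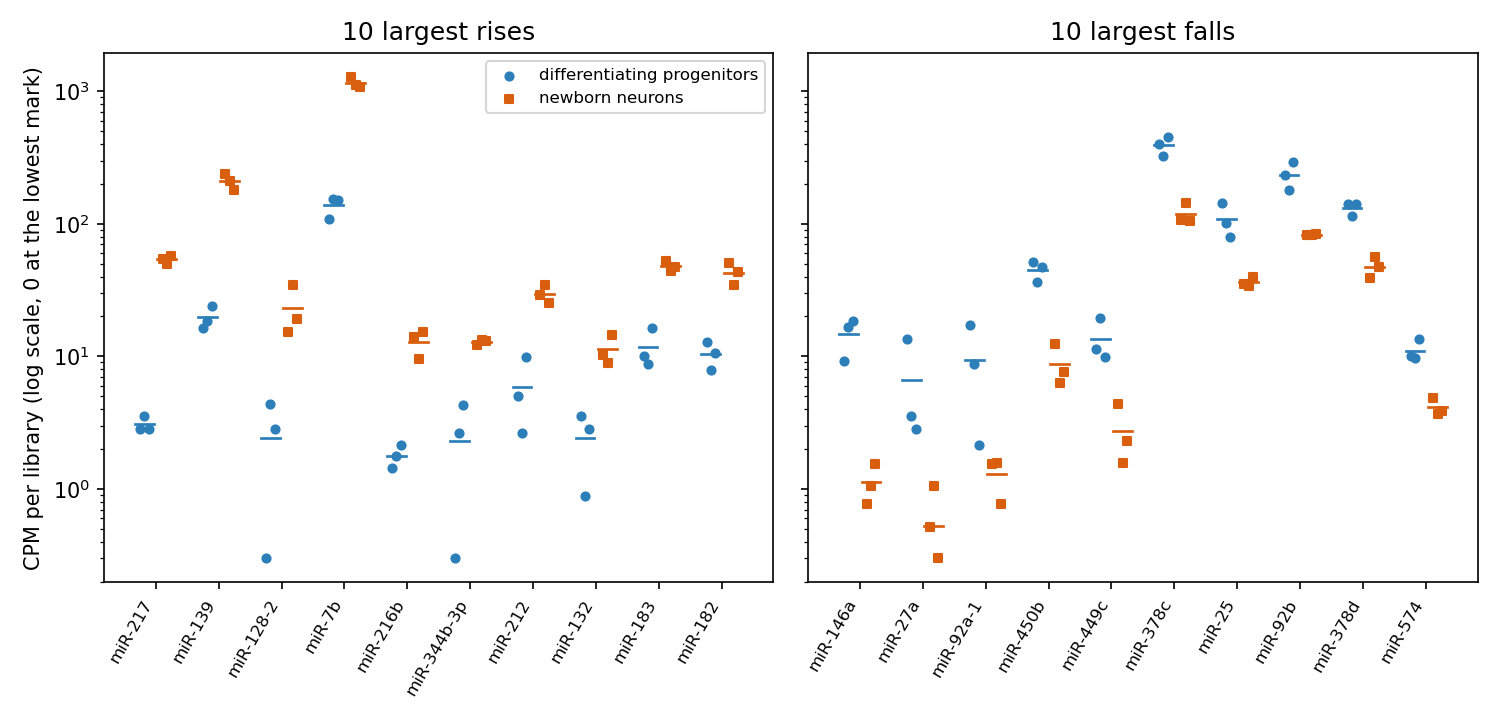
Points are CPM per library on a log axis for the 10 largest called rises (left) and the 10 largest called falls with more than 3 counts in some library (right), ranked by edgeR log2 change; blue circles are differentiating progenitors, orange squares newborn neurons, short bars the means of 3 libraries. Counts of 0 stand at the lowest mark. Populations are apart for every rise shown, while among the falls miR-146a, miR-27a and miR-92a-1 rest on 6 or fewer counts in each neuron library.

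The imprinted locus of chromosome 12 stood out by its size. Between Dlk1 and Dio3 the maternal chromosome makes long transcripts that hold many miRNA hairpins, known from brain and placenta. Near Meg3 and Rtl1, 13 of 14 listed miRNAs had a count and 7 were tested: 6 rose, 0 fell, and all 7 were higher in neurons (median log2 change 1.27). Further along, in the group from miR-379 to miR-410, 33 of 37 had a count and 15 were tested. Of these 12 rose, 0 fell, and all 15 were higher (median log2 change 1.05). Over all tested miRNAs 23.9% rose and the median was -0.06. Every tested miRNA of both lists remained higher in neurons under each of 5 scalings and with any 1 of the 6 libraries left out, where the calls ran from 4 to 6 and from 12 to 14. Without replicate 1 of the neurons, only 6 of the 7 in the first list passed the filter. Without replicate 1 or 2 of the progenitors, or replicate 1 of the neurons, 4 of the first list were called.

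Called rises within the locus ran from 0.74 (miR-493-5p) to 1.68 on the log2 scale. The highest was that of miR-127-5p, which lies opposite an exon of Rtl1 (chr12:109592846-109592915), with 38, 30 and 37 counts against 257, 233 and 88 (log2 change 1.68, SE 0.28, adjusted p in edgeR = 0.00014). Its neighbour miR-434-5p had 387, 261 and 345 counts against 2689, 1784 and 830 (1.59, SE 0.20, adjusted p in edgeR = 1.71e-05). Every neuron library of both lay above all progenitor libraries. In the second group miR-382-5p, in an exon of the non-coding gene Mirg, had 97, 83 and 114 counts against 837, 293 and 363 (1.53, SE 0.24, adjusted p in edgeR = 8.38e-05). The most abundant members of this group rose less than miR-382-5p, at values near the group's median of 1.05. The scarcer miR-679-5p also rose less (0.86). miR-541-5p went from 1240 ± 218 to 2343 ± 116 CPM (0.92, SE 0.16, adjusted p in edgeR = 0.00019). miR-379-5p, the first of its group, went from 555 ± 147 to 1134 ± 57.6 CPM (1.03, SE 0.18, adjusted p in edgeR = 0.00023; SD, n = 3 each). The 4 tested members without a call were miR-431-5p (0.73, SE 0.39), miR-134-5p (0.42, SE 0.24), known for a role in dendrites, miR-299a-3p (0.65, SE 0.30) and miR-666-5p (0.72, SE 0.31), with edgeR adjusted p-values from 0.068 to 0.17. Over the chromosome as a whole, 18 of 25 tested miRNAs with a RefSeq position rose and 0 fell.

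**Figure D3:**
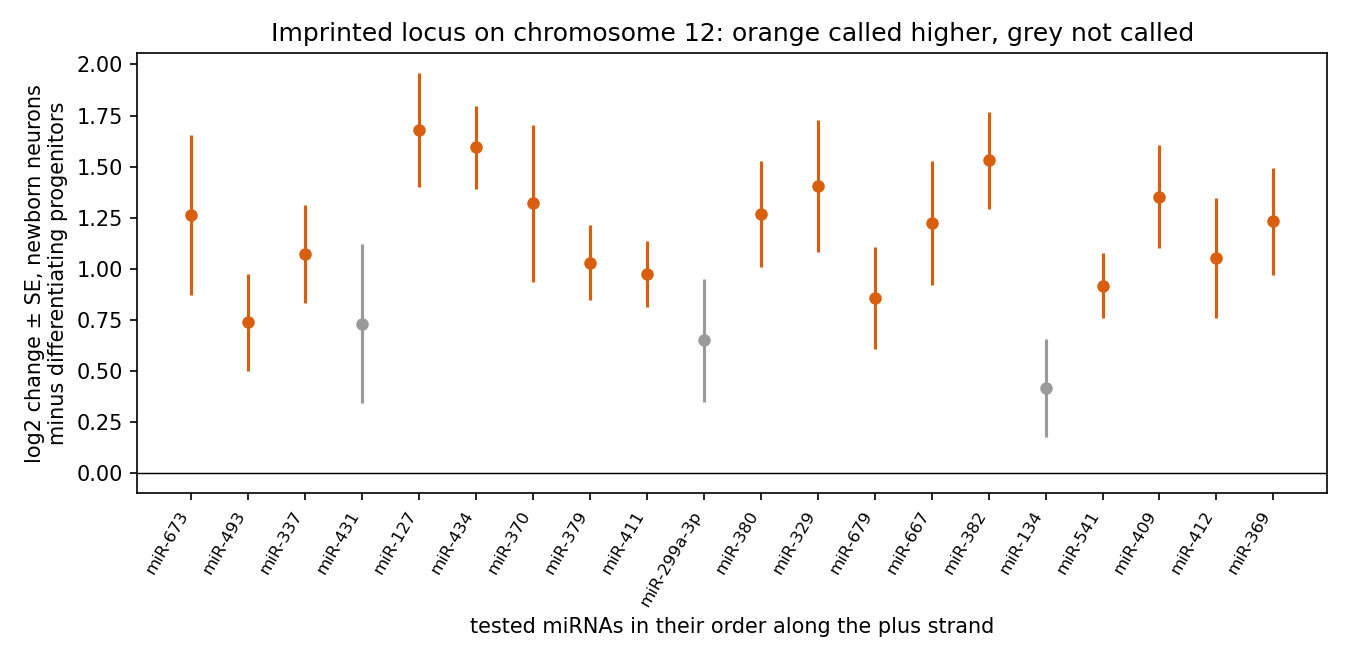
Log2 change with SE from edgeR for 20 of the 22 tested miRNAs of the imprinted locus, those with a RefSeq position, in order along the plus strand; orange points rose, grey points were not called. All 20 lie above 0, and the largest values belong to miR-127 and miR-434 near Rtl1 and miR-382 in the later group; labels leave out the 5p arm.

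miR-486-5p, which the title of the study names, had 45, 25 and 56 counts in differentiating progenitors and 395, 199 and 108 in newborn neurons. The libraries did not overlap, and the rise was 1.61 on the log2 scale (SE 0.25, adjusted p in edgeR = 8.38e-05), a call that held in every alternative tried. Of 188 miRNAs it was the only one that rose here after a called fall at the step before (log2 change -4.44). At that earlier step miR-451a went from 390, 298 and 183 counts to 3, 1 and 3, and miR-144-5p from 45, 48 and 16 to 1, 0 and 1. The part of red blood cells in the earlier fall was not tested. miR-486 is known from red blood cells and muscle. On the erythroid list its fellow markers miR-451a and miR-144-5p had 3, 1 and 3 and 1, 0 and 1 counts in progenitors and 5, 0 and 3 and 0, 0 and 0 in neurons. The summed level of the list ran from 22.9 to 42.7 CPM in progenitors and from 85.3 to 105 CPM in neurons, nearly all of it miR-486-5p, with both other markers at or near 0 in all 6 libraries.

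Among families with at least 5 tested members, miR-25 and miR-92 had the lowest median change. The miR-25 and miR-92a-1 hairpins lie in transcripts that also hold the miR-17 family, known from dividing progenitors and tumours, while miR-92b and miR-32 lie elsewhere. The list goes by family name, and the 4 members that fell have 4 different seeds in the arm measured. Of 6 listed members all had a count and 5 were tested: 4 fell, 0 rose, against 22.3% falling over all tested miRNAs, and the median was -1.51. miR-25-5p, from Mcm7, a gene of the replicative helicase (chr5:138165321-138165404, minus strand), had 202, 116 and 112 counts in progenitors and 137, 64 and 52 in neurons, which is 109 ± 32.8 against 36.3 ± 3.23 CPM (SD, n = 3 each). All neuron libraries were below all progenitor libraries (log2 change -1.59, SE 0.27, adjusted p in edgeR = 0.00016). miR-92b-5p, from a hairpin outside genes on chromosome 3, had 328, 203 and 412 counts against 319, 157 and 109. Its neuron libraries were nearly alike, at 82.9 ± 0.834 CPM against 235 ± 57.3 CPM (log2 change -1.51, SE 0.19, adjusted p in edgeR = 1.71e-05). miR-92a-1-5p had 24, 10 and 3 counts against 6, 3 and 1 (log2 change -2.68, SE 0.67, adjusted p in edgeR = 0.0034). It rests on few reads and passed the filter on low counts only with the proliferating progenitor libraries included. Its call was lost without replicate 1 of the differentiating progenitors (edgeR adjusted p = 0.052). Its change was then -1.80, and 2 of the 5 family members were called. miR-32-5p, from an intron of Tmem245 on chromosome 4, had 156, 105 and 102 counts against 205, 138 and 61 (-0.68, SE 0.22, adjusted p in edgeR = 0.017).

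The miR-17 and miR-20 family, some of whose hairpins lie beside those of miR-25 and miR-92a-1, was not called: 0 of 6 tested members rose or fell, with a median of -0.35. miR-17-5p had 3477, 2350 and 2903 counts against 6492, 2136 and 2814 (log2 change -0.42, SE 0.18, adjusted p in edgeR = 0.075). miR-20a-5p went from 4964 ± 668 to 3695 ± 1201 CPM (SD, n = 3 each; -0.43, SE 0.19, adjusted p in edgeR = 0.077). The neuron libraries disagreed: replicate 2 was lowest for all of miR-17-5p, miR-20a-5p and miR-93-5p, and replicate 3 lay within or above the progenitors' range. Without neuron replicate 3, 3 of the 6 members were called lower. Within the Mcm7 locus the ratio of miR-93-5p to miR-25-5p was 18.5, 25.1 and 27.0 in progenitors and 65.7, 45.6 and 73.8 in neurons. The ranges did not overlap (exact permutation p = 0.1, the smallest possible). Both are 5p arms, but the main product of the miR-25, miR-92a-1 and miR-92b hairpins is the 3p arm, which was not analysed here, so these 3 falls concern the minor arm. miR-32-5p is the main arm of its hairpin.

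Unequal change within 1 hairpin group was also seen on the X chromosome. In the group from miR-322 to miR-450b (chr X, minus strand), 5 of 6 listed miRNAs were tested, 2 fell and 0 rose. miR-450b-5p had 72, 41 and 66 counts in progenitors and 48, 12 and 10 in neurons, a log2 change of -2.26 (SE 0.29, adjusted p in edgeR = 1.76e-05). miR-450a-5p, next to it, had 190, 142 and 170 against 484, 218 and 137 (-0.14, SE 0.17, adjusted p in edgeR = 0.52). The ratio of miR-450a-5p to miR-450b-5p was 2.64, 3.46 and 2.58 in progenitors and 10.1, 18.2 and 13.7 in neurons, so the neighbours moved apart in each neuron library. miR-351-5p, a relative of miR-125 in the same list, fell by 0.60 on the log2 scale (SE 0.17, adjusted p in edgeR = 0.00685), a call lost under both scalings by total counts (adjusted p up to 0.088).

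Of the further single falls above 100 CPM, 4 are described here. Others, such as those of miR-455-5p (log2 change -0.78) and miR-149-5p (-0.50), are not. miR-378c had 557, 369 and 639 counts against 415, 274 and 136 (log2 change -1.73, SE 0.18, adjusted p in edgeR = 1.37e-06), and miR-378d had 196, 131 and 197 against 152, 107 and 61 (-1.49, SE 0.19, adjusted p in edgeR = 1.76e-05). These are close relatives of each other, and their reads may overlap. miR-224-5p, from an intron of the GABA receptor gene Gabre, had 544, 415 and 658 counts against 751, 298 and 227 (-1.22, SE 0.16, adjusted p in edgeR = 1.80e-05). miR-504-5p, from an intron of Fgf13, fell by 0.97 (SE 0.17, adjusted p in edgeR = 0.00019). On the same chromosome miR-672-5p, from an intron of Nexmif, rose by 1.18 (SE 0.23, adjusted p in edgeR = 0.00046). For all 5 the populations were apart in CPM, with the neurons below for the 4 falls and above for miR-672-5p.

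let-7 showed the broadest fall, and a shallow one. let-7 is known to accumulate as cells differentiate and to restrain growth and cell cycle genes. Of 11 listed names (let-7 and miR-98) all had a count and 10 were tested: 8 fell and 0 rose, with a median of -0.44. The summed level of the 9 members with the common seed ran from 132100 to 157800 CPM in progenitors and from 111200 to 122500 CPM in neurons, and these ranges did not overlap. As a share of plain library totals it was 13.5%, 15.7% and 14.9% in progenitors and 12.3%, 11.2% and 14.3% in neurons, where neuron replicate 3 fell within the progenitor range. let-7d-5p fell most (-0.78, SE 0.18, adjusted p in edgeR = 0.0022), from 3269 ± 956 to 1904 ± 173 CPM. let-7c-5p went from 27600 ± 5034 to 18960 ± 2082 CPM (-0.54, SE 0.16, adjusted p in edgeR = 0.0093; SD, n = 3 each). These changes are near the spread between libraries: without progenitor replicate 2 only 2 of the 10 were called, without progenitor replicate 3 or neuron replicate 2 only 3, and 4 to 8 under other scalings. No member was called higher in any of these.

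let-7e-5p and let-7g-5p were the exceptions. let-7e-5p had 3168, 3128 and 4336 counts in progenitors and 11230, 4425 and 4243 in neurons (log2 change 0.07, SE 0.15, adjusted p in edgeR = 0.74), and let-7g-5p had 26851, 24272 and 28722 against 85450, 32879 and 28480 (0.01, SE 0.12, adjusted p in edgeR = 0.97). Their libraries overlapped. The ratio of let-7e-5p to let-7c-5p was 0.103, 0.0873 and 0.105 in progenitors and 0.143, 0.141 and 0.163 in neurons, higher in each neuron library.

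let-7 genes also lie beside miR-99, miR-100 and miR-125 genes in 3 related groups, which did not move alike. At the first, within Mir99ahg on chromosome 16, miR-99a-5p and let-7c-5p fell, and miR-125b-5p was not called. At the second, on chromosome 9, miR-100-5p and let-7a-5p fell. At the third, on chromosome 17, 0 of 3 were called: miR-99b-5p (-0.14, SE 0.14), let-7e-5p and miR-125a-5p (0.11, SE 0.14). let-7c-5p, let-7a-5p and miR-125b-5p are each made from more than 1 hairpin, so their counts cannot be assigned to a locus. miR-99a-5p, miR-100-5p and miR-99b-5p are single-copy and share a seed, and they carry the comparison.

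miR-100-5p (chr9:41531425-41531504) had 18739, 20333 and 24538 counts in progenitors and 35018, 17829 and 7987 in neurons. In CPM this was 16250 ± 2497 against 8185 ± 1784 (SD, n = 3 each; log2 change -0.99, SE 0.16, adjusted p in edgeR = 0.00014). miR-99a-5p (chr16:77598936-77599000) had 47561, 44492 and 58323 counts against 96827, 54308 and 22945, or 38220 ± 3871 against 23730 ± 5605 CPM (-0.69, SE 0.16, adjusted p in edgeR = 0.0019). miR-99b-5p overlapped between populations, at 16200 ± 2480 against 14750 ± 1386 CPM (edgeR adjusted p = 0.45). Its ratio to miR-100-5p was 1.16, 0.792 and 1.09 in progenitors and 1.74, 1.64 and 2.14 in neurons, and its ratio to miR-99a-5p rose in each neuron library as well, from a mean of 0.422 to 0.632.

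Calls in both directions were found in 2 seed families, each with 2 tested members that matched a RefSeq sequence. miR-146a-5p, known as a product of inflammatory signalling and from blood cells, had 13, 19 and 26 counts in progenitors and 3, 2 and 2 in neurons. That is at least 9.55-fold lower, computed against 3 counts per neuron library (edgeR adjusted p = 1.80e-05). miR-146b-5p, from an intron of Mfsd13a (chr19:46342762-46342870), had 454, 447 and 598 counts against 2369, 1306 and 569 and rose by 0.60 (log2, SE 0.18, adjusted p in edgeR = 0.011), a call lost without replicate 1 of either population and with upper-quartile scaling (adjusted p up to 0.083). Of the other listed markers of blood cells and microglia, miR-142a-5p had 3, 1 and 1 counts against 0, 0 and 0, miR-155-5p 12, 21 and 9 against 32, 14 and 9, and miR-150-5p and miR-223-5p at most 1. miR-142a-5p was called lower (edgeR adjusted p = 0.0064), but none of the 6 libraries passed 3 counts, so no fold is given. It passed the filter on low counts only with the proliferating progenitor libraries included. Its call was lost without progenitor replicate 1 (edgeR adjusted p = 0.055). With miR-146a-5p included, 5 of 6 had a count, and their sum ran from 20.7 to 37.0 CPM in progenitors and from 8.44 to 9.01 CPM in neurons. The part of such cells in the fall of miR-146a-5p was not tested.

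miR-449 shares its seed with miR-34 and is known from multiciliated cells. Both of its tested hairpins lie in an intron of Cdc20b (chr13:113035983-113037624, plus strand), 1.64 kb from end to end. miR-449c-5p had 16, 22 and 14 counts against 17, 3 and 3 and fell by 2.08 (log2, SE 0.42, adjusted p in edgeR = 0.00072). miR-449a-5p had 98, 99 and 91 against 546, 283 and 183 and rose by 0.96 (log2, SE 0.25, adjusted p in edgeR = 0.0052). The ratio of miR-449a-5p to miR-449c-5p was 6.13, 4.50 and 6.50 in progenitors and 32.1, 94.3 and 61.0 in neurons, so the neighbours moved apart in every neuron library, on as few as 3 counts of miR-449c-5p. With 1 library left out the change of miR-449c-5p ran from -2.77, without neuron replicate 1, to -1.73. miR-34c-5p was not called (-0.17, SE 0.20, adjusted p in edgeR = 0.52). The call of miR-449a-5p was lost with the authors' predicted rows in the fit (adjusted p = 0.058).

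**Figure D4:**
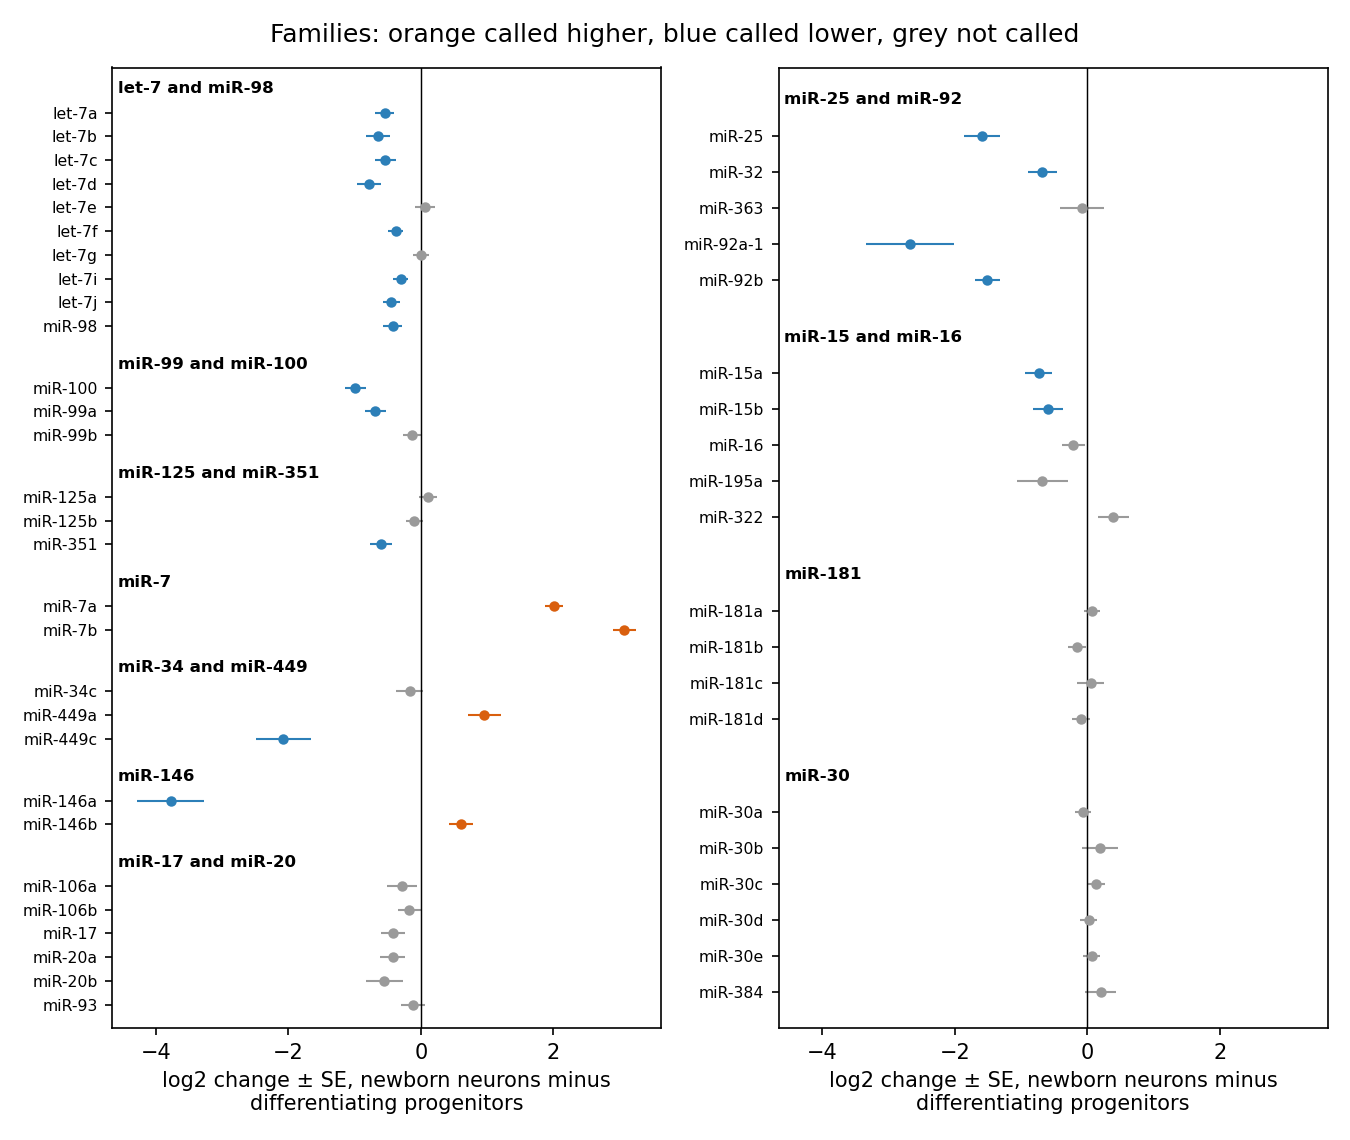
Log2 change with SE from edgeR for every tested member of 11 families, in newborn neurons against differentiating progenitors; orange points rose, blue points fell, grey points were not called. let-7 and miR-98 lie mostly between -0.8 and -0.3, miR-7 at 2.01 and 3.07, while miR-146 and miR-449 have members on both sides of 0; labels leave out the 5p arm.

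**Figure D5:**
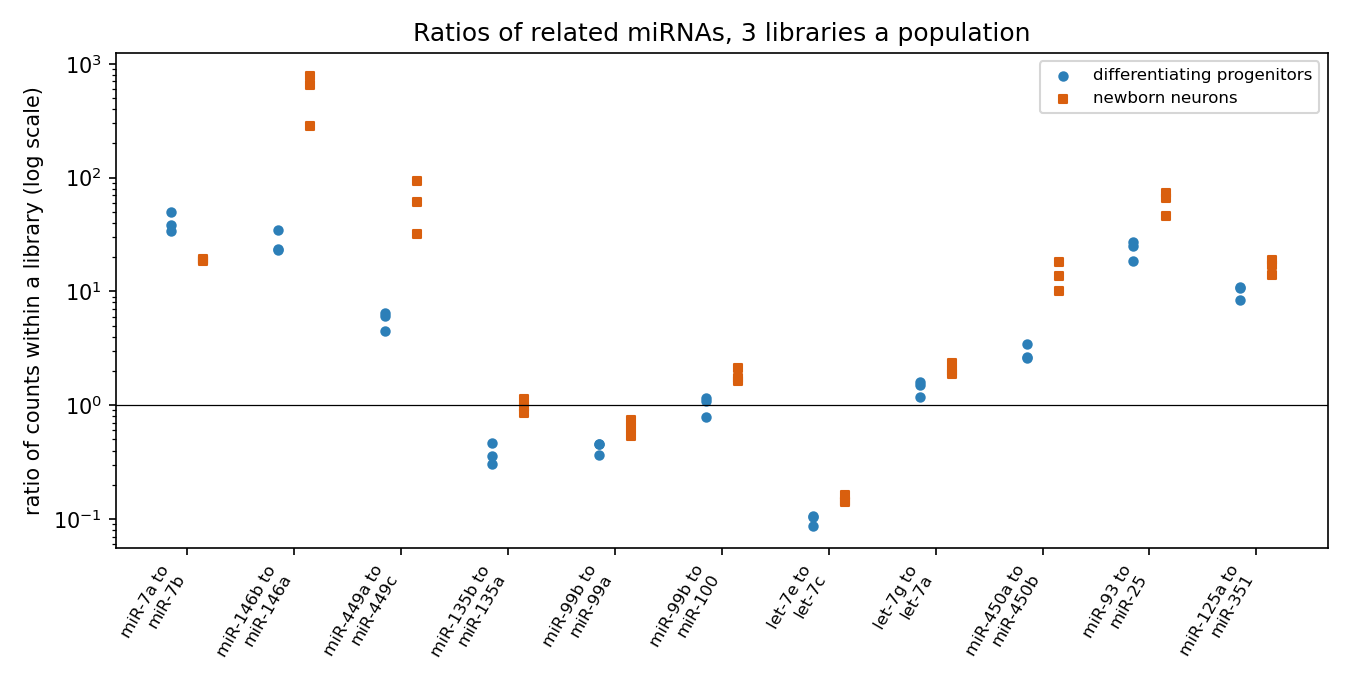
Ratios of counts within each library on a log axis for 11 pairs of related or neighbouring miRNAs; blue circles are the 3 differentiating progenitor libraries and orange squares the 3 newborn neuron libraries. The populations do not overlap for any of the 11 pairs, and the ratio fell only for miR-7a to miR-7b.

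The ratios do not depend on the scaling between libraries, since both counts come from 1 library. For each of the 11 pairs the populations did not overlap, and each exact permutation test gave p = 0.1, adjusted 0.1 over the 11, the smallest that the design allows. The pairs were chosen with these results known, so that separation is a description. miR-135 showed the same: the ratio of miR-135b-5p to miR-135a-5p was 0.357, 0.304 and 0.464 in progenitors and 0.852, 0.967 and 1.14 in neurons. miR-135b-5p rose by 0.90 (log2, SE 0.16, adjusted p in edgeR = 0.00021), and miR-135a-5p was not called (-0.52, SE 0.23, adjusted p in edgeR = 0.074).

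Other abundant families showed no call. miR-9-5p had 63.8% ± 1.51 of the counts in progenitors and 65.3% ± 2.38 in neurons (SD, n = 3 each; exact permutation p = 0.4), with a log2 change of -0.08 (SE 0.11, adjusted p in edgeR = 0.60). With total counts as scaling the log2 change was 0.0335, and with upper-quartile factors it was called lower (adjusted p = 0.028). The miR-181 family had 0 of 4 tested members called, with changes from -0.15 to 0.07, and the miR-30 family 0 of 6. miR-181a-5p had 8549 ± 365 CPM in progenitors and 9000 ± 584 CPM in neurons, and miR-30d-5p 10150 ± 394 and 10280 ± 1862 CPM. miR-124-5p, the minor arm of the best known neuronal miRNA, had 249, 284 and 135 counts against 1230, 918 and 655 and rose by 1.32 (log2, SE 0.30, adjusted p in edgeR = 0.0017). Its 3p arm was not analysed here.

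By seed, 163 of the 188 tested miRNAs matched a RefSeq mature sequence, and these had 127 seeds. Of the 16 seeds with at least 2 of these miRNAs, 2 held only rises among their calls (miR-7 and miR-128), 7 only falls, 2 both and 5 none. miR-34c-5p and miR-135b-5p matched no sequence and are not counted with their relatives. By position, 25 groups of hairpins within 10 kb on a strand held at least 2 tested miRNAs: 5 held only rises among their calls, 10 only falls, 1 both (miR-449) and 9 none. The 5 groups of rises are both parts of the imprinted locus, miR-212 with miR-132, miR-183 with miR-182, and miR-362 with miR-188. miRNAs made from several hairpins count in each group.

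The step before, from proliferating to differentiating progenitors, shares the differentiating libraries with this one, so the values are only set side by side. It had 30 calls (16% of 188). Of the 45 rises at exit, 9 were also called higher at the step before, 1 lower and 35 not called. Of the 42 falls, 8 were also lower before, 1 higher (miR-449c-5p) and 33 not called. A test of the difference between both steps in the same fit called 15 miRNAs (7.98%, and 45 at an unadjusted p under 0.05), 7 with the larger value at exit and 8 with the smaller. Among the 7, miR-451a, miR-486-5p and miR-143-3p, on the lists of erythroid and mural markers, had log2 changes of -7.24, -4.44 and -3.75 at the step before against -0.62, 1.61 and -0.48 at exit. The part of other cells in those earlier falls was not tested.

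The other 4 rose more at exit: miR-217-5p (log2 change 0.86 before and 4.11 at exit), miR-139-5p (1.18 and 3.40), miR-7a-5p (0.75 and 2.01) and miR-434-5p (0.38 and 1.59). Their edgeR adjusted p-values of the difference were 0.041, 0.035, 0.0027 and 0.048. let-7b-5p (0.54 before and -0.65 at exit), let-7c-5p (0.43 and -0.54) and let-7d-5p (0.42 and -0.78) had values of opposite sign, with no call at the step before (edgeR adjusted p of the difference 0.028, 0.035 and 0.028). miR-378c (-0.64 and -1.73) and miR-224-5p (-0.08 and -1.22) fell more at exit, with edgeR adjusted p-values of the difference of 0.035 and 0.019. The rest of the 8 were miR-146a-5p (1.08 and -3.78), miR-449c-5p (2.15 and -2.08) and miR-466i-5p (2.43 and -1.46). Their edgeR adjusted p-values of the difference were 0.00056, 0.0016 and 0.048. miR-146a-5p had at most 3 counts in each neuron library, and miR-466i-5p was not called at exit. For miR-7b-5p the values were 2.03 and 3.07 and the difference was not called (edgeR adjusted p = 0.051). This count of 15 depends on the fit: it was 8 with total counts as scaling, 34 with upper-quartile factors and 27 with DESeq2, and without progenitor replicate 1 it was 9, without neuron replicate 1 8.

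Lists of miRNAs by role, compiled from general knowledge, moved as follows. Both lists share members with families and loci described above, so their counts are not a separate result. On the neuronal list are miR-7a-5p, miR-7b-5p and miR-379-5p, whose value is the list's median. The lowest and highest values of the progenitor list are those of miR-92a-1-5p and miR-363-5p. Of 27 listed as neuronal, 26 had a count and 19 were tested: 11 rose and 1 fell, with a median of 1.03. The fall was that of miR-129-5p (-0.68, SE 0.18, adjusted p in edgeR = 0.0064), a miRNA known from neurons, whose call was lost without progenitor replicate 3 (edgeR adjusted p = 0.063). miR-138-5p, known from dendrites, had 11, 6 and 5 counts against 54, 43 and 30 (1.77, SE 0.36, adjusted p in edgeR = 0.00072). Of 28 listed for progenitors, 19 had a count and 14 were tested: 0 rose and 5 fell, with a median of -0.42. All 14 were lower in neurons, but 11 were with total counts without miR-9-5p as scaling, and 10 without neuron replicate 2. The calls were 2 without progenitor replicate 1, 3 without neuron replicate 1 or 2 and 7 without neuron replicate 3.

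Markers of most other cells were scarce. The exception was the glial list, which summed to 10790 to 11330 CPM in progenitors and 8066 to 11010 CPM in neurons. Nearly all of it was miR-21a-5p, which many cell types make, with 15040, 12303 and 15862 counts against 42631, 19674 and 10432, and 0 of its 3 tested members were called. Listed muscle miRNAs had 0 counts in all 6 libraries. The endothelial miR-126a-5p had 16, 14 and 17 counts in progenitors and 35, 10 and 16 in neurons, and the mural miR-143-3p 50, 45 and 56 against 133, 62 and 15, lowest in neuron replicate 3. miR-204-5p, known from choroid plexus, had 10, 51 and 19 against 188, 126 and 33 (log2 change 1.16, SE 0.65, adjusted p in edgeR = 0.16), with libraries that overlapped. It was called in 4 alternatives: without a filter, with only the 6 libraries, with a replicate block, and without progenitor replicate 2, where the change was 2.21 (adjusted p = 0.023). With 1 library left out its change ran from 0.77 to 2.21. miR-200a-5p, an epithelial marker, had at most 1.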

How the data were processed

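Per the labels' protocols, sorted cells gave small RNA libraries through a NEBNext kit. The deposited table held whole-number read counts per mature miRNA row, made by the authors and not normalised, with 1 column per library. The submitters' processing notes name mm10, bcl2fastq 1.8.2 and DESeq2 without a role; aligner, database release and handling of multiply mapped reads are not given in the sources used here. Of 1433 rows, 1211 carried a database identifier and 222 did not; the latter, taken as predicted miRNAs from their names, were left out. Among the former 925 were named 5p, 114 3p and 172 had no arm, so most 3p arms were not analysed here. For each name the row with the largest total was kept, and names whose counts differed by at most 2% with at least 50 counts were merged (7 groups), which left 1052 miRNAs.

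All 9 libraries entered a single fit in edgeR 4.0.16 (R 4.3.3) without covariate: filterByExpr by population, TMM factors, glmQLFit and glmQLFTest, with Benjamini-Hochberg adjustment over the 188 tested miRNAs and a threshold of 0.05. The tested miRNAs held 99.97% of all counts, and edgeR's common coefficient of variation was 0.161. The script was tested on simulated counts. A population with no library above 3 counts was set to 3 counts per library, which makes the fold a bound that covers counting error alone. For ratios and shares the tests are exact permutation tests, two-sided. The labels do not say that replicates came from separate embryos or litters, so p-values measure the spread between these samples only, which may be technical. Alternatives covered scaling (DESeq2 1.42.0 size factors, upper quartile, total counts), tool (DESeq2, limma 3.58.1 voom), filter, the libraries in the fit, repeated and predicted rows, threshold, a replicate block and each library left out.

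Followed were miR-486-5p, the 10 most abundant miRNAs, and the 6 largest rises and 6 largest falls in CPM. To these came the 12 largest rises and 12 largest falls among calls that reach 100 CPM in either population's mean and whose libraries do not overlap. From listed families and loci came all members of lists of up to 4, otherwise the called member of largest change. This rule named 87 miRNAs, and 18 more were followed after their values were seen. Not all of them are described above. Among called changes left out are the rises of miR-6540-5p (log2 change 1.80, adjusted p in edgeR = 2.62e-05), miR-409-5p (1.35), miR-337-5p (1.07), miR-411-5p (0.97) and miR-532-5p (0.76). The fall of miR-455-5p (-0.78) is another. Members and lists were chosen with earlier results of these data known. Mature sequences and hairpin positions are those of RefSeq on GRCm38.p6, and host genes those of GENCODE on the same assembly, which is mm10. Of the 188 tested miRNAs 25 had no RefSeq sequence under their name.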

Additional observations from a re-analysis of the deposited data

Results flagged for a closer look

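Among the 222 rows without a database identifier, which entered no comparison, 91 had more than 3 counts in at least 1 of the 6 libraries, the limit that a count of 0 allows. They held 0.118% to 0.352% of the counts of a library, and 4 were above 3 counts in all 6. There was 1 with more than 3 counts in each neuron library and none in any differentiating progenitor library. Their sequences and sources were not examined.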

How the results depend on the processing

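The count of 87 called miRNAs ran from 69 (adjusted p under 0.01) to 101 (all rows with a database identifier), and from 74 to 87 with a library left out. With only the 6 libraries in the fit, 183 miRNAs were tested and 86 called, 81 of them shared with the main fit. The count of 50 called at least 2-fold ran from 44 (at least 10 CPM in 3 libraries) to 67 (without a filter), and from 48 to 55 with a library left out. Scaling by total counts without miR-9-5p gave 49 rises and 26 falls of 75, or 65.3% rises against 51.7% in the main fit. Upper-quartile factors gave 41 rises and 53 falls of 94, or 43.6% rises, so the balance of directions depends on the scaling. Total counts without miR-9-5p shifted the median change of all miRNAs by 0.17, total counts by 0.11 and upper-quartile factors by -0.19. The miRNAs whose change differed between both steps numbered 15. They were 34 with upper-quartile factors, 8 with total counts, 27 with DESeq2's Wald test, 26 with all rows, 6 with the predicted rows, 6 at an adjusted p under 0.01 and 8 to 18 with a library left out (9 without differentiating progenitor replicate 1, 8 without neuron replicate 1). The miR-9-5p share ran from 63.0% to 64.5% in progenitors and from 64.3% to 66.6% in neurons with a library left out. With the replicate number as a block, 88 miRNAs were called (84 shared), 51 at least 2-fold, and 14 differed between steps. Deviations of same-numbered libraries of both populations correlated at 0.076 to 0.209, and 4 of 6 libraries correlated best with their own number. Between both progenitor populations the values were 0.050 to 0.271 and 6 of 6. Not every pair passed 0.1, so the numbers were not taken to pair the samples. Of 66 followed and called miRNAs, 0 changed sign in any alternative and 44 kept their call in all. The 22 that lost it in at least 1 include 7 of let-7 and miR-98, miR-15a-5p (total counts without miR-9-5p, adjusted p = 0.057), miR-26a-5p, miR-26b-5p, miR-301a-5p, miR-301b-5p, miR-27a-5p and miR-370-5p. Of 39 not called, 12 were called in at least 1 alternative, and these 22 changed sign. With upper-quartile factors the log2 changes were -0.10 for let-7e-5p, -0.16 for let-7g-5p, -0.0699 for miR-125a-5p, -0.10 for miR-181a-5p, -0.12 for miR-181c-5p and -0.17 for miR-30d-5p. With total counts they were 0.0254 for miR-125b-5p, 0.0547 for miR-148b-5p, 0.0411 for miR-181d-5p, 0.14 for miR-191-5p, 0.0463 for miR-30a-5p, 0.0109 for miR-363-5p, 0.0335 for miR-9-5p and 0.0295 for miR-93-5p. With total counts without miR-9-5p they were 0.0014 for miR-106b-5p, 0.0875 for miR-125b-5p, 0.12 for miR-148b-5p, 0.0407 for miR-181b-5p, 0.0887 for miR-181d-5p, 0.18 for miR-191-5p, 0.11 for miR-30a-5p, 0.01 for miR-34c-5p, 0.0813 for miR-363-5p, 0.0299 for miR-450a-5p, 0.10 for miR-9-5p, 0.0643 for miR-93-5p and 0.0475 for miR-99b-5p. With predicted rows they were 0.0539 for miR-148b-5p, 0.0789 for miR-191-5p, 0.0305 for miR-30a-5p and 0.0178 for miR-9-5p. For miR-191-5p they were 0.0101 without a filter, 0.0079 with at least 10 CPM in 3 libraries and 0.0043 with all rows. With a library left out they ran from -0.0283 to 0.27 for let-7e-5p, -0.0686 to 0.19 for let-7g-5p, -0.26 to 0.0283 for miR-106b-5p, -0.16 to 0.0193 for miR-125b-5p, -0.22 to 0.10 for miR-148b-5p, -0.32 to 0.0418 for miR-16-5p, -0.20 to 0.005 for miR-181b-5p, -0.20 to 0.017 for miR-181d-5p, -0.16 to 0.24 for miR-191-5p, -0.69 to 0.011 for miR-27b-5p, -0.17 to 0.0649 for miR-30a-5p, -0.0616 to 0.43 for miR-30b-5p, -0.0179 to 0.19 for miR-30d-5p, -0.35 to 0.20 for miR-363-5p, -0.13 to 0.0684 for miR-9-5p, -0.32 to 0.17 for miR-93-5p and -0.21 to 0.0597 for miR-99b-5p. The cause of these changes was not tested.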

Other observations

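Further families fell in part. Of 5 tested miRNAs of miR-15 and miR-16, a family known to restrain the cell cycle, 2 fell: miR-15a-5p had 118, 95 and 115 counts in progenitors and 219, 72 and 72 in neurons (log2 change -0.73, SE 0.21, adjusted p in edgeR = 0.0074), and miR-15b-5p fell by 0.59 (SE 0.23, adjusted p in edgeR = 0.044). The latter call was lost without replicate 1 or 2 of either population. miR-16-5p, encoded beside both, was not called (-0.21, SE 0.17). At the miR-23a locus on chromosome 8, miR-27a-5p had 19, 4 and 4 counts against 2, 2 and 0, at least 4.28-fold lower against 3 counts per neuron library (edgeR adjusted p = 0.0031, but 0.0501 without progenitor replicate 1). The bound without that library was 1.84-fold, but there the 3 counts were set to plain library totals without TMM factors, so both bounds are not strictly comparable. miR-27a-5p passed the filter on low counts only with the proliferating progenitor libraries included. The neighbour of miR-27a-5p, miR-24-2-5p, fell from 25.0 ± 5.48 to 11.2 ± 1.71 CPM (SD and n = 3 each, log2 change -1.14, SE 0.27, adjusted p in edgeR = 0.0025). miR-148a-5p fell by 1.3 (log2, SE 0.29, adjusted p in edgeR = 0.0019), while miR-148b-5p, which has the same seed, was not called (-0.05).

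Members of the rodent miR-297, miR-466, miR-467 and miR-669 group, many of them known from an intron of Sfmbt2, were not called: of 34 listed 31 had a count, 6 were tested and 0 rose or fell. The list goes by family name, and the tested members had no RefSeq position, so none was placed at that locus. miR-344b-3p had 0, 3 and 6 counts in progenitors and 47, 25 and 17 in neurons (log2 change 2.43, SE 0.52, adjusted p in edgeR = 0.0012), and its change ran from 1.85 to 3.39 with 1 library left out, the higher value without progenitor replicate 3. It was the only tested member of 13 listed miR-344 names and was singled out after its values were seen. miR-185-5p, singled out likewise, went from 508 ± 32.0 to 937 ± 124 CPM (SD, n = 3 each; 0.88, SE 0.15, adjusted p in edgeR = 0.00014).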
